A study of Danio rerio with 8 samples.

Results

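Galectins are lectins, proteins that bind sugar chains ending in beta-galactoside, and the 10 galectin genes described here are those with the highest summed counts among the 13 genes of the counts table whose symbol is lgals followed by a digit, out of 32520 genes in all. Genes named lgals3bp, which encode a galectin-binding protein and no galectin, were left out by the rule. The members were chosen by their symbol and by the measured counts summed over all 8 libraries. The last gene inside was lgals2b with 1 count, and the 3 genes outside, lgals9l4, lgals9l5 and lgals9l6, had 0. The set was drawn up with earlier results of these data known, and the rule names lgals9l1 and lgals9l3, so the differences of those genes are given as descriptions.

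RNA was sequenced from ventricles of adult F1 zebrafish whose mothers were uninjured. The injured-father group had fathers whose hearts were wounded by freezing (cryoinjury) and that were crossed 7 days later. It gave 4 libraries, numbered 1, 2, 4 and 7 in the labels. The uninjured-father group had fathers without a wound and gave 4 libraries, numbered 1, 3, 4 and 5. The offspring of both groups were themselves uninjured, and the labels name neither a strain nor an age. Each library pooled the ventricles of 4 sibling fish, with the atrium and the bulbus arteriosus removed and the ventricle cut to let erythrocytes out. Whether pools of a group had different fathers is not given in the sources used here. The SEs, intervals and p-values therefore speak of the spread among these pools of fish, part of which may be technical. They do not measure a spread among fathers. If pools of a group shared a father, a difference between families could not be told apart from one between injured and uninjured fathers.

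Galectins are made in the cytosol, leave cells without the usual secretion signal, and act outside by cross-linking glycoproteins and inside as sensors of damaged membranes. They fall into a prototype class with a single sugar-binding domain (in mammals galectins 1 and 2), a chimera class whose member is galectin 3, and a tandem-repeat class with a pair of linked domains (galectins 4, 8 and 9). In mammals galectin 3 is abundant in macrophages, galectin 9 is induced by interferon and binds the T-cell receptor TIM-3, galectin 8 marks broken endosomes for autophagy, and galectin 4 belongs to the lining of the gut.

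Libraries held between 8441014 and 16290169 counts and between 18398 and 19179 genes with at least 1 count. Across the 13604 genes that passed the low-count filter, the edgeR quasi-likelihood test called 0 genes at an adjusted p of 0.05, which is 0% of those tested. An unadjusted edgeR p under 0.05 was reached by 971 of them, and limma voom called 0 of the same genes. DESeq2 started from 23104 genes, before its own filtering, and called 57. Cardiomyocyte markers summed to between 106946 and 133850 CPM with injured fathers and between 123029 and 148080 CPM with uninjured fathers, where CPM is the count over the scaled library total, times 1e6. The injured library numbered 7 had the highest summed level of the interferon genes listed below and of the macrophage markers, and the folds that it moved most are also given without it.

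Of the 10 galectin genes, 6 passed the low-count filter, and these carried nearly all galectin counts. The prototype gene lgals2a, which RefSeq also lists as Drgal1-L2, was at the highest level per length, with a mean of 58.9 CPM per kilobase over the 8 libraries, lowest 48.7 and highest 81.6. The chimera genes followed, with lgals3b at 24.8 CPM per kilobase (20.4 to 32.8) and lgals3a at 18.8 CPM per kilobase (12.99 to 34.8). The tandem-repeat genes were lower: lgals9l3 was at 9.37 CPM per kilobase (5.28 to 18.4), the LGALS8 gene on chromosome 20 at 4.83 CPM per kilobase (3.18 to 7.36) and lgals9l1 at 2.16 CPM per kilobase (0.745 to 4.38). The range of lgals2a was clear of that of its next neighbour. Each later pair of neighbours in this order overlapped in range. By level per length lgals2a ranked 732 of the 13604 genes tested and lgals9l1 ranked 7892, around a median gene at 2.91 CPM per kilobase.

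**Figure D1:**
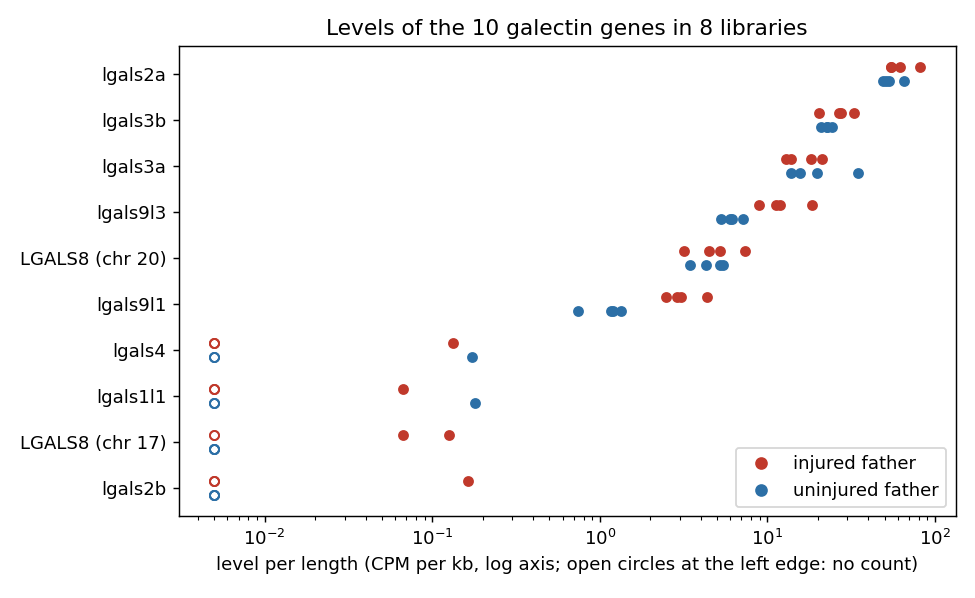
Level per length (CPM per kilobase, log axis) of the 10 galectin genes, 1 point per library, red for injured and blue for uninjured fathers; open circles at the left edge are libraries without a count. The 6 upper genes have counts in all 8 libraries, from lgals2a at a mean of 58.9 to lgals9l1 at a mean of 2.16, and the red and blue points are apart in lgals9l3 and lgals9l1.

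The paralogues lgals3a and lgals3b overlapped in level, while other related genes lay far apart. On chromosome 3, lgals1l1 (28939759 to 28946756 on GRCz11) had 3 counts over all libraries, while lgals2a (28953274 to 28961518, on the same strand and 6517 bases away) had 13169. The LGALS8 gene on chromosome 20 had 733 counts and the one on chromosome 17 had 2. The table of gene names writes both in capitals after the human gene. On chromosome 15, 5 galectin 9 genes lie within 80.2 kb (30987414 to 31067589), all on the minus strand. Of these, lgals9l3 had 2451 counts, lgals9l1 had 505 and the other three had 0. A count of 0 out of 104054052 allows lgals9l4 a level of up to 0.0290 CPM, taking 3 counts as the upper limit, for counting error only. The genes lgals9l5 and lgals9l6 share exon bases, 587 of the 1437 of lgals9l5, and reads that overlap several genes were not counted, so a 0 there says less. Multi-mapping reads also went uncounted. The split of reads between lgals9l1 and lgals9l3 and the count of 0 for lgals9l4 are uncertain to that extent.

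The galectin 9 genes stood apart between the groups. In the lgals9l1 gene (ENSDARG00000025903, GRCz11 chromosome 15, 31032255 to 31043183, minus strand), the libraries of injured fathers had 6.37, 5.49, 6.75 and 9.63 CPM, against 2.63, 2.56, 2.96 and 1.64 CPM with uninjured fathers. Every injured-father library lay above every uninjured-father library, and the one numbered 7 was highest. The means were 7.06 ± 1.79 CPM with injured fathers and 2.45 ± 0.565 CPM with uninjured fathers (SD, n = 4), a log2 fold of 1.53 (SE 0.28, 95% interval 0.93 to 2.13). By edgeR's quasi-likelihood test the p was 0.00013, the third smallest of the 13604, and the adjusted p over all genes was 0.31. DESeq2 gave a log2 fold of 1.52 with an adjusted p of 0.0012. The counts behind these levels were 71, 50, 89 and 165 with injured fathers and 36, 32, 41 and 21 with uninjured fathers, so that counting alone contributes 21.8% to the lowest of them. Without the injured library numbered 7 the log2 fold was 1.34.

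The neighbouring lgals9l3 gene (ENSDARG00000041060, chromosome 15, 31054200 to 31067589, minus strand) lies 11016 bases from lgals9l1. It was at 21.9, 27.7, 29.1 and 45.1 CPM in libraries of injured fathers, against 14.7, 15.1, 17.6 and 12.96 CPM with uninjured fathers. The groups again did not overlap, and the injured library numbered 7 was again highest. The means were 30.9 ± 9.92 CPM and 15.1 ± 1.91 CPM (SD, n = 4), a log2 fold of 1.04 (SE 0.23, 95% interval 0.53 to 1.54). The edgeR p was 0.00073, with an adjusted p of 0.40 over all genes, and DESeq2 gave an adjusted p of 0.028. Without the injured library numbered 7 the log2 fold was 0.80.

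In every library lgals9l3 was above lgals9l1 per length. The ratio of their levels per kilobase was 3.08, 4.52, 3.86 and 4.20 with injured fathers, against 5.01, 5.30, 5.34 and 7.09 with uninjured fathers. The ratios of the groups did not overlap, so lgals9l1 was the member whose level differed more in proportion, while in CPM the larger difference was that of lgals9l3 (15.8 CPM, against 4.62 CPM for lgals9l1). This ratio was chosen after its values were seen and was not tested.

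**Figure D2:**
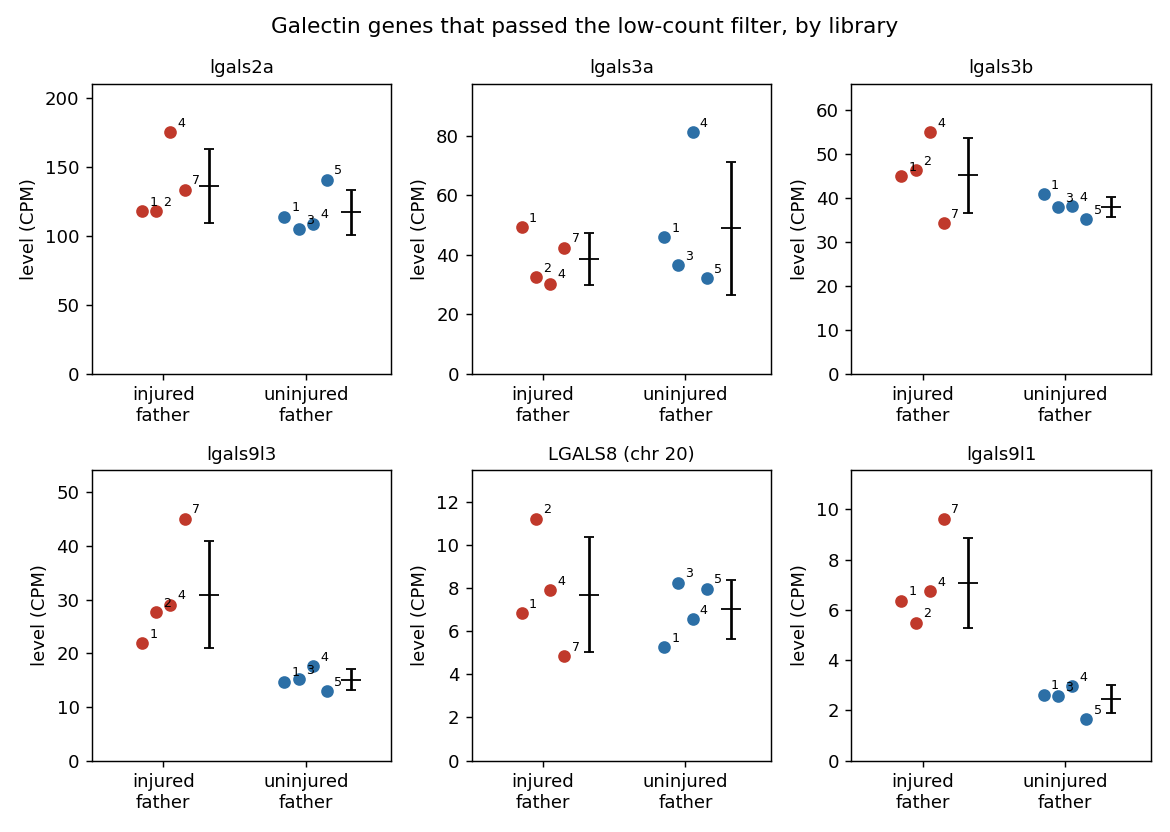
Level (CPM, linear axes from 0) of the 6 galectin genes that passed the low-count filter, 1 point per library with its number in the labels, red for injured and blue for uninjured fathers; black bars are the mean and SD of 4 libraries. The groups are apart in lgals9l3 (21.9 to 45.1 against 12.96 to 17.6 CPM) and lgals9l1 (5.49 to 9.63 against 1.64 to 2.96 CPM) and overlap in the other four.

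The groups overlapped in the other tested genes of the neighbourhood. NF1, a Ras-inactivating protein gene 47450 bases from lgals9l1, had a log2 fold of -0.04 (SE 0.25). KSR1, a scaffold of the MAP kinase cascade 3013 bases from lgals9l3, had a log2 fold of -0.09 (SE 0.37). WSB1, 94193 bases from lgals9l3, had a log2 fold of 0.12 (SE 0.19).

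**Figure D3:**
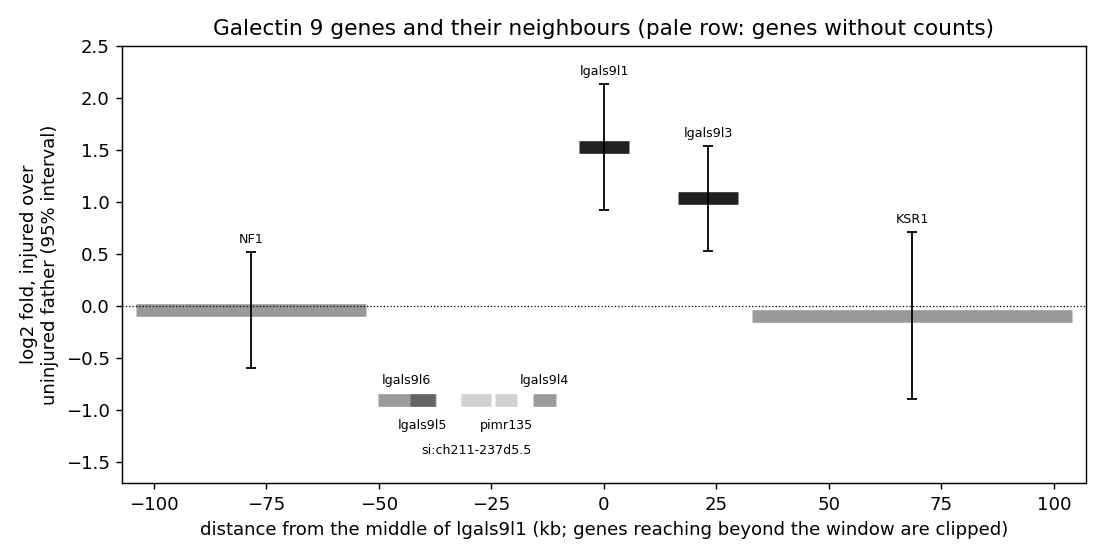
Log2 fold of injured over uninjured fathers (bars: 95% interval) against distance from the middle of lgals9l1 in kb, for the genes within 100 kb; horizontal bars span each gene, dark for galectins, and a pale row below holds the genes without counts. The 2 galectin genes with counts are at 1.53 and 1.04, and the flanking genes NF1 and KSR1 at -0.04 and -0.09.

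In the remaining tested galectins the groups overlapped and the 95% intervals of the log2 folds spanned 0. The lgals2a gene had 118, 118, 175 and 133 CPM with injured fathers, against 114, 105, 109 and 141 CPM with uninjured fathers. The injured library numbered 4 was highest and the groups overlapped, with a log2 fold of 0.22 (SE 0.18) and an edgeR adjusted p of 0.81; without that library the log2 fold was 0.068. The lgals3b gene (ENSDARG00000044001, chromosome 17, 10824659 to 10838434) had 44.9, 46.4, 55.0 and 34.3 CPM with injured fathers, against 40.9, 37.9, 38.1 and 35.2 CPM with uninjured fathers. Here 3 of the 4 injured-father libraries lay above all of the other group, and the one numbered 7 was the lowest of all 8. The log2 fold was 0.25 (SE 0.18, edgeR adjusted p 0.77). It was 0.13 without the injured library numbered 4 and 0.36 without the one numbered 7 (unadjusted edgeR p 0.056).

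Its paralogue lgals3a (ENSDARG00000077850, chromosome 13, 36568635 to 36582341) had 49.3, 32.5, 30.3 and 42.4 CPM with injured fathers, against 46.0, 36.5, 81.3 and 32.1 CPM with uninjured fathers. The uninjured library numbered 4 was well above the other seven. The log2 fold was -0.34 (SE 0.29, edgeR adjusted p 0.81), and without that library it was 0.017. Per kilobase, lgals3a was at 1.53 times the level of lgals3b in that library and at 0.396 to 0.890 times in the other seven. The LGALS8 gene on chromosome 20 (ENSDARG00000037066, 4793516 to 4814098) ranged from 4.84 to 11.2 CPM with injured fathers and from 5.26 to 8.24 CPM with uninjured fathers. Its log2 fold was 0.13 (SE 0.28, 95% interval -0.48 to 0.73) and -0.11 without the injured library numbered 2.

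The log2 fold was above 0 in 5 of the 6 galectins tested and below 0 in 1, with a median of 0.23, where the median of all genes tested was -0.01. An unadjusted edgeR p under 0.05 was reached by 2 of the 6, both higher with injured fathers, where 7.14% of all tested genes reached it, 3.67% higher and 3.47% lower. In lgals9l1 and lgals9l3, the same genes, no library of one group reached into the other, where 4.18% of tested genes did not overlap, 2.60% with injured fathers above. The injured library numbered 7 was the highest of the 8 in these 2 galectins, as in 9.64% of tested genes. None of the 6 passed at an adjusted p of 0.05 by edgeR. A fit that included the haemoglobin share of counts gave a median of 0.026, where the log2 folds of lgals9l1 and lgals9l3 were 1.58 and 1.11. The haemoglobin share of counts was 0.155% to 0.360% with injured fathers and 0.0900% to 0.171% with uninjured fathers.

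**Figure D4:**
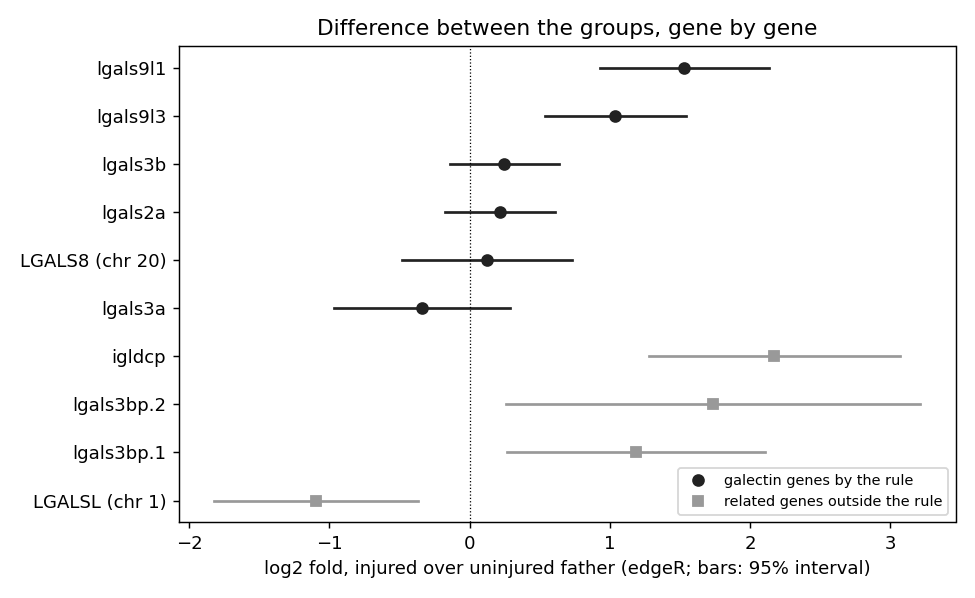
Log2 fold of injured over uninjured fathers with its 95% interval from edgeR, for the 6 tested galectin genes (black circles) and 4 related genes outside the rule (grey squares). The intervals of lgals9l1 (0.93 to 2.13) and lgals9l3 (0.53 to 1.54) lie above 0 before any adjustment for the 13604 genes tested, and those of the other galectins span 0.

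Together the 10 galectins took 0.0264%, 0.0260%, 0.0277% and 0.0285% of the counts with injured fathers, against 0.0227%, 0.0206%, 0.0242% and 0.0215% with uninjured fathers. These shares did not overlap, whereas the summed scaled levels, 241 to 304 CPM with injured fathers and 205 to 257 CPM with uninjured fathers, did. The difference of the means was 36.9 CPM. Its larger parts were lgals2a (19.0 CPM), lgals9l3 (15.8 CPM), lgals3b (7.14 CPM) and lgals9l1 (4.62 CPM), with -10.3 CPM for lgals3a. As given above, the lgals2a difference leaned on the injured library numbered 4, and that of lgals3a on the uninjured library numbered 4. The makeup of the galectin counts also differed. The galectin 9 genes held 11.4% to 20.2% of them with injured fathers and 6.32% to 8.63% with uninjured fathers. These galectin 9 shares contain lgals9l1 and lgals9l3 and add nothing independent of them. The sums over the 10 galectins contain these 2 genes too and are not independent of them. Of the galectin counts, lgals2a held 42.4% to 61.0%.

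The 4 lowest members had counts in at most 2 libraries each. The lgals4 gene (ENSDARG00000104016, chromosome 18, 50650512 to 50672516) had 21 counts in the injured library numbered 7 and 22 in the uninjured library numbered 4, and 0 in the other six. Markers of epithelia, fixed as a list of 8 genes of gut, liver and skin lining, did not share a single pattern. The keratin gene krt5 was at 7.76 CPM in the injured library numbered 7 and 9.08 CPM in the uninjured library numbered 4, and at most 1.56 CPM in the others. The epithelial adhesion gene epcam was at 3.09 and 1.51 CPM in those libraries and at most 0.234 CPM in the others, and the cadherin gene cdh1 was at 4.96 and 2.88 CPM, against at most 2.24 CPM. These 3 genes were picked after their values were seen. The gut fatty acid binding gene FABP2 was at 0 in both, and the list as a whole summed to 57.3 to 83.3 CPM with injured fathers and 58.6 to 91.7 CPM with uninjured fathers, lowest in those libraries. What part other tissue had in the lgals4 counts was not tested. The remaining members, lgals1l1, the LGALS8 gene on chromosome 17 and lgals2b, had 3, 2 and 1 counts in all.

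Several relatives of the galectins lie outside the rule. The gene igldcp (ENSDARG00000088251, chromosome 15, 17059622 to 17074393), for which RefSeq lists lgals17 and lgals9 as synonyms, was at 6.73, 8.02, 12.0 and 22.4 CPM with injured fathers, against 2.48, 1.76, 4.25 and 2.42 CPM with uninjured fathers. The groups did not overlap, and the injured library numbered 7 was highest. Its log2 fold was 2.17 (SE 0.41, edgeR p 0.00021, adjusted p 0.31), and 1.70 without that library; DESeq2 gave an adjusted p of 0.00065. It was known from earlier results and is described here for its synonyms. The LGALSL gene on chromosome 1, of a galectin-related protein that in human does not bind lactose, had a negative log2 fold. It was at 1.97, 2.20, 2.43 and 4.14 CPM with injured fathers, against 5.18, 3.84, 8.94 and 5.31 CPM with uninjured fathers. Only the injured library numbered 7 reached into the range of the other group. The fold was -1.09 on the log2 scale (SE 0.33, edgeR p 0.0065, adjusted p 0.56). Of the lens galectin gene GRIFIN there were 2 counts in all.

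Galectins act through the glycoproteins that they bind and the enzymes that build the bound sugars. Of 28 matched genes of binding partners (integrins, laminins, fibronectins, lysosomal membrane proteins and others), 22 were tested. Of these, 1 was higher and 1 lower with an unadjusted edgeR p under 0.05. At that p 3.67% of all tested genes were higher and 3.47% lower. The median log2 fold of the partners was -0.11, and 0 passed after adjustment. The higher one was lgals3bp.1, of a secreted glycoprotein that binds galectin 3, at 13.2, 16.7, 26.9 and 48.0 CPM with injured fathers, against 10.1, 8.16, 8.51 and 19.4 CPM with uninjured fathers. The groups overlapped, and the injured library numbered 7 was highest. Its log2 fold was 1.19 (SE 0.42, edgeR adjusted p 0.60), and 0.71 without that library (unadjusted p 0.069). Without the uninjured library numbered 4 it was 1.06 (unadjusted p 0.053). The other copies on chromosome 3 had fewer counts: lgals3bp.2 had a log2 fold of 1.74 (SE 0.68, unadjusted edgeR p 0.025), which was 1.38 (unadjusted p 0.089) without the injured library numbered 7 and 2.63 without the uninjured library numbered 5; its p was also above 0.05 without the injured library numbered 4 and without the uninjured ones numbered 1, 3 and 4. The copy lgals3bp.3, not tested, was at 6.65 CPM in the injured library numbered 7 and at most 0.549 CPM in the other seven. The lower one was the fibronectin gene FN1 on chromosome 1, of an extracellular matrix protein, at 312 ± 83.9 CPM with injured fathers and 423 ± 42.9 CPM with uninjured fathers (SD, n = 4; log2 fold -0.44, SE 0.20, edgeR adjusted p 0.70). Without the injured library numbered 7, the lowest of the 8, its log2 fold was -0.27 with an unadjusted p of 0.12, and the p stayed under 0.05 when the injured library numbered 1 or the uninjured one numbered 5 was left out, but with none of the other six. The integrin gene ITGA5, of the fibronectin receptor, was at 85.3, 57.9, 52.3 and 209.7 CPM with injured fathers, against 153, 129, 170.4 and 206 CPM with uninjured fathers. The injured library numbered 7 was the highest of all 8, and the other libraries of its group lay below all of the uninjured-father libraries. The log2 fold was -0.70 (SE 0.40, edgeR adjusted p 0.74), and -1.34 without that library (unadjusted edgeR p 0.00014, adjusted p 0.15). Since that library ran against the rest of its group, the small p without it is a description. With any other library left out instead, the log2 fold was -0.79 to -0.48, with an unadjusted edgeR p of 0.10 to 0.26. Leaving out the uninjured library numbered 4 left 0 partner genes with an unadjusted p under 0.05. The TIM-3 gene havcr2 did not pass the low-count filter, with means of 0.432 CPM with injured fathers and 0.535 CPM with uninjured fathers.

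Of 34 matched genes of galactoside glycan enzymes, which add or remove the branches and caps that decide how galectins bind, 23 were tested. Of these, 1 was higher and 0 were lower with an unadjusted edgeR p under 0.05, and 0 passed after adjustment. Among all tested genes 3.67% were higher and 3.47% lower at that p. The median log2 fold of the enzymes was -0.13. The higher one was B3GNT7, a chain-extending N-acetylglucosaminyltransferase gene, at 0.718, 3.08, 6.14 and 2.45 CPM with injured fathers, against 1.09, 1.04, 0.721 and 0.625 CPM with uninjured fathers. The injured library numbered 1 lay within the other group. Its log2 fold was 1.83 (SE 0.54, edgeR adjusted p 0.54). This was 1.24 (unadjusted edgeR p 0.028) without the injured library numbered 4, the highest of the 8, and 2.15 without the injured one numbered 1. The branching enzyme gene MGAT4A was at 169 ± 35.4 CPM with injured fathers and 235 ± 68.6 CPM with uninjured fathers (SD, n = 4). Its log2 fold was -0.47 (SE 0.22). The uninjured library numbered 4 was at 338 CPM, and without it the log2 fold was -0.24. The MGAT3 gene on chromosome 6, of the bisecting branch, had a log2 fold of -0.85 (SE 0.51). This was -0.41 without the uninjured library numbered 4, at 5.62 CPM the highest of the 8, and -1.23 without the injured library numbered 1.

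The genes whose profile over the 8 libraries came closest to the galectins differed by member. Likeness was the root mean square difference of log2 CPM after subtracting each gene's mean, over 10146 named genes whose log2 CPM averaged 1 or more. Clone names were left out by a colon or by a prefix (BX, CR, CU, CT, LOC, FP or CABZ). The prefixes may also have dropped other genes whose symbols are in capitals. The points share libraries and scaling, so this likeness is a description. For lgals9l1 the closest were helz2b (0.22), the antiviral GTPase gene mxe (0.25) and pkz (0.25), a fish antiviral kinase gene. The median gene was at 0.86, and lgals9l3 was at 0.31. For lgals9l3 the closest were the zinc finger gene zc3h7ba (0.13), parp14rs1 (0.16) and gig2o (0.17), of a fish family induced by virus and interferon, with a median gene at 0.66. In all 6 of these genes the injured-father libraries lay above, with log2 folds of 1.27 for helz2b, 1.45 for mxe, 1.36 for pkz, 0.96 for zc3h7ba, 0.95 for parp14rs1 and 0.90 for gig2o, which the measure itself favours. Without the injured library numbered 7 these were 1.07 for helz2b, 1.01 for mxe, 1.04 for pkz, 0.78 for zc3h7ba, 0.83 for parp14rs1 and 0.82 for gig2o. The interferon genes isg15 and RSAD2, with larger log2 folds of 2.16 and 2.74, were further off. From lgals9l1, isg15 was at 0.54 (rank 89 of 10146) and RSAD2 at 0.70 (rank 830). From lgals9l3, isg15 was at 0.64 (rank 4336) and RSAD2 at 0.84 (rank 8456), the latter further than the median gene. The measure is not scaled for the size of a fold, so a fold larger than that of the galectin raises the distance by itself. These ranks therefore do not compare the shapes of the profiles. For lgals2a the closest were RPL36AL (0.04) and RPL39 (0.05), genes of ribosomal proteins, and tma7 (0.04), with a median gene at 0.39. The groups overlapped in these genes, with log2 folds of 0.22 for RPL36AL, 0.18 for RPL39 and 0.18 for tma7, which were 0.075, 0.012 and 0.021 without the injured library numbered 4.

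**Figure D5:**
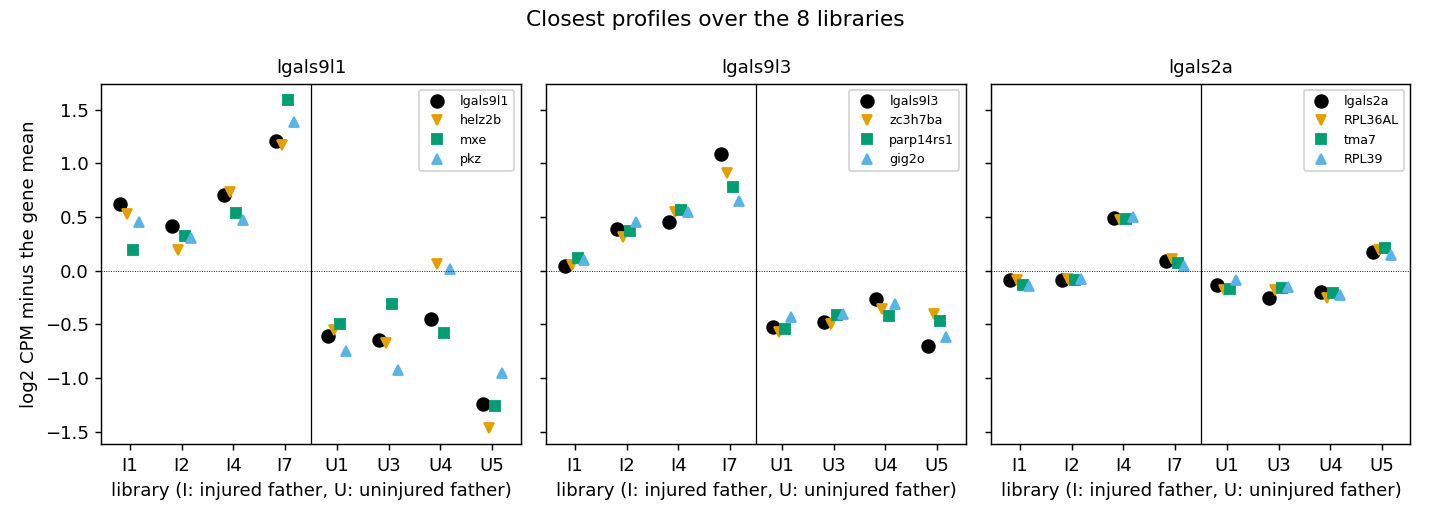
Log2 CPM minus the gene's mean in each library (I: injured father, U: uninjured father, with the number in the labels) for lgals9l1, lgals9l3 and lgals2a (black) and the 3 closest genes of each. The lgals9l1 and lgals9l3 panels are above 0 in all 4 injured-father libraries and highest in I7, while lgals2a and its closest genes peak in I4.

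A list of 12 matched interferon genes summed to 342, 367, 408 and 559 CPM with injured fathers, against 253, 206, 278 and 241 CPM with uninjured fathers, with the injured library numbered 7 highest. All 11 tested members were higher with an unadjusted edgeR p under 0.05 (median log2 fold 1.45). Without the injured library numbered 7 all 11 still were, with a median of 1.09, and without the injured library numbered 4 it was 9 of 11. The gene ifit8 was not tested. The direction was known from earlier results and is no independent support. Macrophage markers were matched by 23 genes, several of them copies under the symbols MFAP4 and MPEG1. They summed to 303, 272, 366 and 549 CPM with injured fathers, against 273, 317, 234 and 337 CPM with uninjured fathers. The groups overlapped, and the injured library numbered 7 was again highest. Of 17 tested macrophage markers 13 had a log2 fold above 0 and 4 below, where 6614 of all 13604 tested genes were above 0. With an unadjusted edgeR p under 0.05, 1 was higher, the scavenger receptor gene marco (log2 fold 0.80). At that p 1 was lower, the receptor gene csf1rb (-1.18). The shares over all tested genes were 3.67% higher and 3.47% lower. The median log2 fold of the macrophage markers was 0.32. The median was 0.14 without the injured library numbered 7. The log2 fold of csf1rb was then -1.03 (unadjusted p 0.076), and its unadjusted p was also above 0.05 without the injured library numbered 4 and without the uninjured ones numbered 1 and 3, at -0.75 without the last. In addition 1 MPEG1 copy was at 0 in every library. Erythrocyte markers had a higher median log2 fold, 0.68 over 8 tested genes, 2 of them higher with an unadjusted edgeR p under 0.05. The share of all tested genes higher at that p was 3.67%. With 1 library left out, the number of erythrocyte markers higher at that p was 1 to 4. Without the injured library numbered 4 it was 1, and the erythrocyte median was 0.32. Medians were 0.25 for thrombocyte, 0.20 for neutrophil, -0.03 for endothelial and -0.16 for cardiomyocyte markers. They were -0.04 for epicardial, fibroblast and mural markers, -0.15 for epithelial markers and -0.72 for the 1 lymphocyte marker tested. Only 3 neutrophil markers were tested, and 1 was higher with an unadjusted edgeR p under 0.05. Without the injured library numbered 1, 0 were. The part of any of these lists in the galectin 9 differences was not tested. In these bulk samples, more cells of a type and more RNA per cell cannot be told apart.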

How the data were processed

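Bulk RNA sequencing of 8 pooled ventricle libraries was deposited as unnormalised read counts per gene. Counting used featureCounts 2.0.3 (strand option 0, multi-mapping and multi-overlapping reads dropped) and Ensembl release 111 of GRCz11, per the file headers. Per the submitters' processing notes, reads were aligned with STAR 2.7.10a. Per the labels' protocols, 1 ng of RNA went into each library, amplified in 2 rounds and sequenced as 60-base single reads. Amplified reads without molecular identifiers are not independent molecules, so intervals from counts cover counting error only. Per the file headers, the gene length (in the table's other column used here) is the summed exon length in bases.

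The whole table was fitted with edgeR 4.0.16 (R 4.3.3): TMM factors, filterByExpr with a minimum count of 10, robust quasi-likelihood test, Benjamini-Hochberg adjustment over the 13604 genes tested. Standard errors were taken as |log2 fold| divided by sqrt(F). Levels are CPM (counts over the TMM-scaled total, times 1e6), given as mean ± SD; profiles used log2 CPM with a prior count of 2. Alternatives were other scalings and filters, DESeq2 1.42.0, limma voom 3.58.1, leaving out each library, a replicate block and the haemoglobin share. The members and lists were chosen with earlier results of these data known. Named genes are all members with values by library for those of small p, separate groups or highest level, the 3 members of smallest p from each list and the 3 closest profiles; the text prints some of the list genes, and others are said to have been picked. Symbols came from a table of gene names, then RefSeq synonyms (GRCz12tu), then the symbol without a final a or b or without the number after a point. A listed symbol could match several genes of the same name, and each of these was counted. No sequences are shown.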

Additional observations from a re-analysis of the deposited data

Results flagged for a closer look

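In groups of 4 libraries, 15 of 69 groups had a library far from the rest by Dixon's criterion, which chance meets in about 1 of 20 groups. The groups came from genes named here. Some of these were picked after their values were seen, and others for a profile like that of a galectin. The share therefore cannot be set against the chance rate. In a group with counts in a single library any count meets the criterion. Such single libraries were the injured one numbered 7 (1.23 CPM) and the uninjured one numbered 4 (1.59 CPM) for lgals4, the injured one numbered 7 (0.0584 CPM) and the uninjured one numbered 5 (0.156 CPM) for lgals1l1, and the injured one numbered 2 (0.110 CPM) for lgals2b, with 0 in the other libraries of each group.

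The injured library numbered 7 also stood out for lgals3bp.3 (6.65 CPM, the others at most 0.549), mxe (14.5, the others at most 6.90), pkz (13.7, the others at most 7.21), krt5 (7.76, the others at most 1.08) and epcam (3.09, the others at most 0.0897). The uninjured library numbered 4 stood out for MGAT4A (338 CPM, the others at most 202), pkz (5.19, the others at most 2.99) and epcam (1.51, the others at most 0.234). The uninjured library numbered 5 stood out for RPL36AL (485 CPM, the others at most 377) and tma7 (64.3, the others at most 49.7).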

How the results depend on the processing

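The log2 folds of lgals9l1 and lgals9l3 stayed positive under all 17 alternatives. They ranged from 1.23 to 1.64 for lgals9l1 and from 0.65 to 1.17 for lgals9l3. DESeq2 was the alternative under which they passed at an adjusted p of 0.05 (lgals9l1 log2 fold 1.52, lgals9l3 1.02); over the alternatives the adjusted p ranged from 0.0012 to 0.75 for lgals9l1 and from 0.028 to 0.98 for lgals9l3. Leaving out each library gave 0 genes called throughout, 2 galectins with an unadjusted p under 0.05 throughout, a median galectin log2 fold of 0.12 to 0.33 and a lgals9l1 log2 fold of 1.34 to 1.64. The sign turned for lgals3a without the uninjured library numbered 4 (0.017; -0.49 to 0.017 over the libraries left out) and for the LGALS8 gene on chromosome 20 without the injured library numbered 2 (-0.11; -0.11 to 0.30 over the libraries left out). DESeq2 called 57 genes (44 higher, 13 lower). Adding the haemoglobin share as a covariate gave a median galectin log2 fold of 0.026; the cause was not tested.

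The labels give both groups the numbers 1 and 4, so a replicate block rests on those 4 libraries. With the block 20 of the 13604 genes tested were called (11 higher, 9 lower). Of the galectins 1, lgals9l1, had an unadjusted edgeR p under 0.05, while lgals9l3 had a log2 fold of 0.65 (unadjusted edgeR p 0.17). The block has a term for each replicate number, which leaves little from which to estimate the spread. Deviations of same-numbered libraries from their group means correlated at 0.12 for number 1 and -0.28 for number 4, over the tested genes. With 2 pairs, of opposite sign, this cannot decide whether same-numbered libraries share more than a number. In lgals9l1 counting error was 7.78% to 21.8% of the count per library. Leaving out each library for the other named genes and the lists was added after seeing the data.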
